A study of Homo sapiens with 6 samples.

Results

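CYP11A1 and 5 of its partners in the mitochondrial step of steroid synthesis were examined after exposure to selamectin in MDA-MB-231, an established line of human breast cancer of the triple-negative class. The 6 genes are CYP11A1, STAR, STARD3, FDX1, FDXR and TSPO. Each was taken from the deposited array table where the platform annotation gave a transcript cluster, the set of probes assigned to a locus, exactly that symbol. Of the 6, 5 had such a cluster, each a single one, among 18417 genes named in this way. FDXR had none and was not analysed here. The selamectin group consisted of 3 arrays of cells kept for 24 h with 1 µM selamectin, an avermectin antiparasitic. The control group consisted of 3 arrays of cells that the titles call untreated whereas the protocol speaks of vehicle, and it is open which of these they received. The arrays, all of the same cell line grown in the same supplemented medium, measured labelled total RNA, and the series title concerns inhibition of the SIN3 corepressor by avermectins.

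CYP11A1 was taken up because an earlier look at the same data had placed it among the larger rises. Its difference between the groups is therefore described here without a test. The partners were chosen by their role, with those earlier results known.

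Steroid hormones are made from cholesterol, and the opening reaction takes place inside mitochondria. CYP11A1, the cholesterol side-chain cleavage cytochrome P450, sits on the inner mitochondrial membrane and turns cholesterol into pregnenolone. It receives its electrons from FDX1, the small iron-sulfur protein adrenodoxin, which is itself reduced by the flavoprotein FDXR using NADPH. STAR, the steroidogenic acute regulatory protein, brings cholesterol to that membrane in the adrenal cortex and the gonads. STARD3 is a late endosomal relative with the same kind of lipid-binding domain, and TSPO is a cholesterol-binding protein of the outer mitochondrial membrane. High CYP11A1 is known mainly from the adrenal cortex, the gonads and the placenta, whereas FDX1 and FDXR also serve other mitochondrial reactions in most cells.

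The start-site regions of the gene that stood higher, CYP11A1, and of the partner that hands it electrons, FDX1, are shown so that their sequences can be set side by side. Both come from RefSeq (GRCh38.p14) and run 5′ to 3′ on the gene's own strand from 250 bases before to 50 bases after the start site. CYP11A1 lies at chr15:74367597-74367896 on the minus strand and FDX1 at chr11:110429698-110429997 on the plus strand. Capitals mark matches, on either strand, to any of the motifs named in the next paragraph.
CYP11A1: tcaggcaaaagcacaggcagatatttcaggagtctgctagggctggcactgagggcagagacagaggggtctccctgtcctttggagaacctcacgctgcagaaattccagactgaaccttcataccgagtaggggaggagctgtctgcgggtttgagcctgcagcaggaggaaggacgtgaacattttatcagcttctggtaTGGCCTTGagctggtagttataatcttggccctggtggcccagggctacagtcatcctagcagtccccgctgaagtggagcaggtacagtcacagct
FDX1: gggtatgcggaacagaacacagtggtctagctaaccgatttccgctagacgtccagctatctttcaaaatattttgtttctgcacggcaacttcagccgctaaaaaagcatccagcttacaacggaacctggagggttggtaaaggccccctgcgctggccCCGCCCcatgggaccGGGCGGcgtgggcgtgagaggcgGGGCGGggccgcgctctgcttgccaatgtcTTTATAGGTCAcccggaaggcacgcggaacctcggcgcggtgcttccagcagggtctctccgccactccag

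The motifs searched on both strands were AGGTCA, a nuclear receptor element, CACGTG, the E-box bound by MYC and MXD proteins, TGACG, the core of the cAMP response element, GGGCGG, the GC box bound by SP1, TATAAA, the TATA box, and CTGTCA, an element bound by TGIF proteins. None of these 6 occurred in the CYP11A1 window. An additional motif, CAAGGNCA, the extended element of the NR5A receptors, was added after the window had been read, and it matched once, on the opposite strand, at position -47 with the start site counted as 0. Of 35114 RefSeq windows of the same length, 5.28% held CAAGGNCA. The FDX1 window held 3 GC boxes, where 45% of all windows hold at least 1. It also held AGGTCA, present in 13.8% of windows, and TATAAA on the opposite strand, present in 11.5%; both lie within the run tttataggtca and share a base there. The window of FDX1 had a GC content of 60.3%, and that of CYP11A1 54.7%, where the median window had 58.7%. Sequences were found for 5 of the 6 genes. STARD3 had 2 GC boxes and the most upstream of 3 TSPO windows had 6 GC boxes and a single TGACG match. FDXR has a pair of windows, of which the upstream one held 6 GC boxes and the other held a CAAGGNCA match, on the opposite strand at position 6. These are matches of letters, and whether any factor was bound was not measured.

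The values are taken as log2 units from RMA, an array summary that adjusts background and equalises the arrays. A cluster's level depends on its own probes, so levels are compared between arrays for a gene and not between genes. The array medians lay between 7.47 and 7.51, and arrays of the same group correlated with r between 0.9949 and 0.9971 across genes, which are not independent replicates. In a principal component analysis of all genes, selamectin array 3 stood apart from the other 5 arrays on the second component, which held 20.8% of the variance. Values without that array are given where it matters. Values of a few genes linked to the labelled line are given as a description. VIM, the mesenchymal filament vimentin, averaged 12.90 on selamectin arrays and 12.67 on untreated arrays. Receptors that define the triple-negative class by their lack averaged, on selamectin and untreated arrays, 6.80 and 6.97 for ESR1, 5.74 and 5.60 for PGR, and 9.08 and 9.17 for ERBB2. The table carries no detection calls, so absence of a transcript cannot be read from it. As levels are not compared between genes, these values do not test which line was used.

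CYP11A1 stood higher on every selamectin array than on any untreated array. Its log2 values were 9.59, 9.89 and 9.26 on selamectin arrays 1, 2 and 3, against 8.60, 8.45 and 8.82 on untreated arrays 1, 2 and 3. The lowest selamectin value lay 0.44 log2 units above the highest untreated value, so the groups did not overlap. Over all genes, 25.3% had groups that did not overlap, 16.0% with selamectin higher, and nothing is read from CYP11A1 being among them because the gene was chosen on this contrast. The means were 9.58 ± 0.32 with selamectin and 8.62 ± 0.19 untreated (SD, n = 3 each). The log2 change was 0.95 ± 0.15 (SE), with a 95% interval from 0.62 to 1.29, or 1.93-fold with an interval from 1.53-fold to 2.44-fold. Because the gene was chosen for its rise, this interval does not carry its 95% meaning and the change may be overstated. The change was the 11th highest of the 18417 genes. The median change of all genes was 0.04, and the range from the 5th to the 95th percentile ran from -0.31 to 0.31.

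The size of the CYP11A1 difference varied between the treated cultures. Selamectin array 1 stood 0.96 log2 units above the untreated mean, array 2 stood 1.26 above it and array 3 stood 0.63 above it. Array 3, which stood apart on the second component over all genes, thus held the lowest treated value. The change was 1.11 without that array and 0.80 without selamectin array 2. Bulk RNA was measured, so a change in the share of cells that make the transcript and a change in transcript per cell cannot be told apart.

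**Figure D1:**
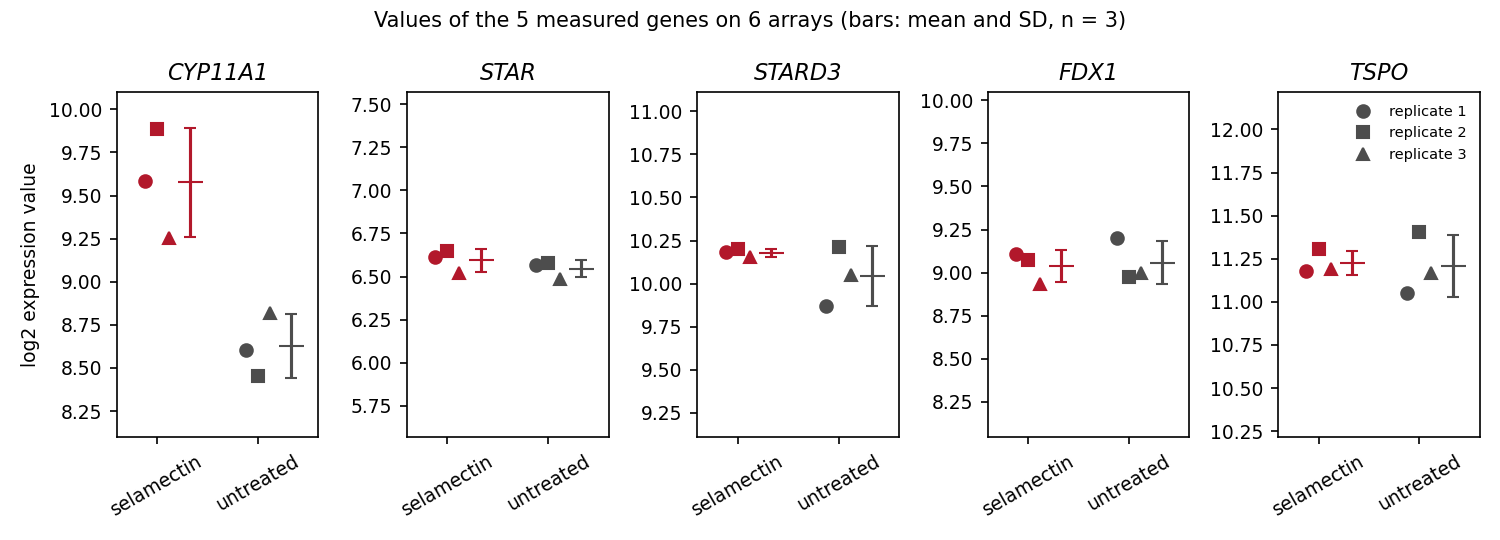
Log2 expression values of the 5 measured genes (1 panel each, every panel spanning 2 log2 units) on selamectin arrays (red, left) and untreated arrays (grey, right); marker shapes give the replicate number and bars the mean and SD (n = 3). The CYP11A1 groups are separated by 0.44 log2 units, while the groups overlap for STAR, STARD3, FDX1 and TSPO.

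None of the 4 measured partners passed the test over all genes, in which limma called 4.69% of the 18417 genes at an adjusted p under 0.05. At an unadjusted p under 0.05 in limma the partners also numbered 0, against 19.9% of all genes. The treated and untreated values overlapped for every one of the 4.

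FDX1, the electron donor, had log2 values of 9.11, 9.08 and 8.93 on selamectin arrays 1, 2 and 3, against 9.20, 8.97 and 8.999 on untreated arrays 1, 2 and 3. Both the highest and the second lowest of these 6 values were untreated. The means were 9.04 ± 0.09 with selamectin and 9.06 ± 0.12 untreated (SD, n = 3 each). The log2 change was -0.02 with an interval from -0.24 to 0.20 (limma adjusted p = 0.94), which in fold terms runs from 0.85 to 1.15. Its sign turned to positive without selamectin array 3 (0.03) and without untreated array 1 (0.05). FDXR, the reductase that feeds it, was not analysed here.

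STAR, the cholesterol carrier of steroid-forming tissues, had log2 values of 6.61, 6.65 and 6.52 on selamectin arrays 1, 2 and 3, against 6.57, 6.58 and 6.49 on untreated arrays 1, 2 and 3. The third array was the lowest in both groups. The log2 change was 0.05 with an interval from -0.12 to 0.22 (limma adjusted p = 0.76), or 1.03-fold with an interval from 0.92-fold to 1.16-fold. Whether the STAR cluster was above background is not known without detection calls, and a change of a transcript near background would be compressed in values of this kind.

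STARD3, the endosomal relative, had log2 values of 10.18, 10.20 and 10.16 on selamectin arrays 1, 2 and 3, against 9.87, 10.22 and 10.05 on untreated arrays 1, 2 and 3. The treated values lay within 0.05 log2 units of each other, inside the wider spread of the untreated values. The SD was 0.02 with selamectin and 0.17 untreated (n = 3 each). The log2 change of 0.14 had an interval from -0.09 to 0.36 (limma adjusted p = 0.50), or 1.10-fold with an upper bound of 1.28-fold. Leaving out untreated array 2 gave 0.22 (adjusted p = 0.20), and leaving out untreated array 1 gave 0.05 (adjusted p = 0.89).

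TSPO, the outer membrane protein, had log2 values of 11.18, 11.31 and 11.19 on selamectin arrays 1, 2 and 3, against 11.05, 11.41 and 11.17 on untreated arrays 1, 2 and 3. The untreated arrays held both the lowest and the highest value. The log2 change was 0.02 with an interval from -0.20 to 0.24 (limma adjusted p = 0.94), or 1.01-fold with an interval from 0.87-fold to 1.18-fold. Its sign turned to negative without selamectin array 2 (-0.02), untreated array 1 (-0.06) or untreated array 3 (-0.0037). For the 4 partners a p that misses the threshold does not show that they were unaffected, but each interval lay below 1.5-fold in either direction. For STAR this bounds the signal of the cluster only, since a change near background would be compressed. Within the selamectin group array 3 held the lowest value of CYP11A1, STAR, STARD3 and FDX1, while for TSPO the lowest was array 1.

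**Figure D2:**
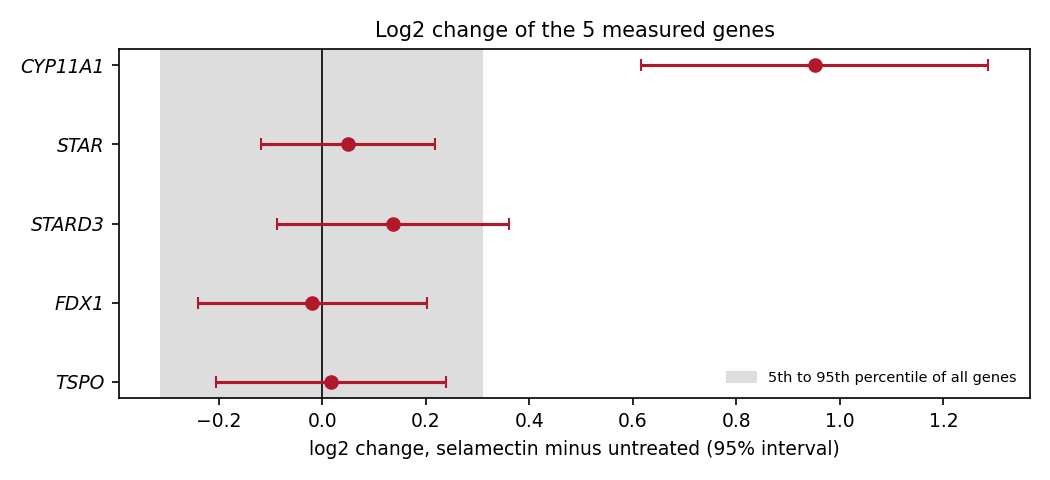
Log2 change of the 5 measured genes, selamectin minus untreated, with the 95% interval of the fit (points and bars) over the range that holds the changes of all genes from the 5th to the 95th percentile (grey band, -0.31 to 0.31). CYP11A1 lies at 0.95 outside the band, and the 4 partners lie between -0.02 and 0.14 inside it. CYP11A1 was chosen on this contrast, so its interval is a description and does not carry its 95% meaning.

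The genes of steroid metabolism around these 6 were followed in 12 lists, which together named 186 genes. Of these 170 were measured, and 2 rose and 5 fell past the threshold in limma, by which 2.41% of all genes rose and 2.28% fell. The 7 are 4.12% of those measured, close to the 4.69% of all genes. The median log2 change of the 170 was 0.02, where that of all genes was 0.04. The groups did not overlap for 28.2% of the 170 and for 25.3% of all genes. Counts at an unadjusted p under 0.05 in the lists below stand beside 19.9% of all genes, 11.7% being higher. The 2 that rose were HSD17B10 and ISCA1, and the 5 that fell were HSD17B8, HSD17B6, LRP1, OSBPL1A and TFAP2A.

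Of 29 measured enzymes that act on steroids after pregnenolone, 1 rose, 2 fell and 26 did not pass. At an unadjusted p under 0.05 in limma, 3 were higher and 6 lower. Of all genes, 11.7% were higher at that p and 19.9% differed in either direction. HSD17B8, a short-chain dehydrogenase of mitochondria that also takes part in fatty acid synthesis there, had log2 values of 9.38, 9.34 and 9.18 on selamectin arrays 1, 2 and 3, against 9.87, 10.14 and 9.97 on untreated arrays 1, 2 and 3. It fell 1.62-fold (log2 change -0.70 ± 0.10 SE, limma adjusted p = 0.0058), and its 3 clusters held the same values. HSD17B6, an enzyme that oxidises androgen metabolites, averaged 6.87 ± 0.06 with selamectin and 7.41 ± 0.13 untreated (SD, n = 3 each), and fell 1.45-fold (adjusted p = 0.010). HSD17B10, a mitochondrial dehydrogenase that doubles as a subunit of mitochondrial ribonuclease P, averaged 11.65 ± 0.22 with selamectin and 11.20 ± 0.06 untreated, and rose 1.37-fold (adjusted p = 0.039). The groups of all 3 genes did not overlap, as was the case for 25.3% of all genes. Over the list the changes ran from -0.70 to 0.45 with a median of 0.01.

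HSD17B8 kept its call without any single array. HSD17B6 lost its call without untreated array 3 (limma adjusted p = 0.052). HSD17B10 lost its call without selamectin array 2 (0.17), selamectin array 3 (0.050), or untreated array 1 (0.12), 2 (0.090) or 3 (0.11), and with the replicate block (0.061) or a second quantile normalization (0.060). The aldo-keto reductases AKR1C3 and AKR1C1, which reduce steroid ketones and whose probes can be shared within their family, changed by -0.55 and -0.51 without passing (adjusted p = 0.063 and 0.087). STS, the sulfatase that frees steroids from their sulfates, changed by -0.30 (adjusted p = 0.0505). HSD17B3, the testicular enzyme that makes testosterone, changed by 0.27 (adjusted p = 0.053). The groups of AKR1C3, AKR1C1, STS and HSD17B3 did not overlap, as was the case for 25.3% of all genes. These 4 genes were chosen after their values were seen.

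Genes that mark dedicated steroid-forming cells did not pass. Whether their clusters were above background is not known without detection calls, and changes near background would be compressed. Of 10 measured markers of such cells, limma called 0 over all genes and 1 at an unadjusted p under 0.05, and the groups overlapped for all 10. Of all genes, limma called 4.69%, and 19.9% had an unadjusted p under 0.05. The groups did not overlap for 25.3% of all genes. The 10 changes ran from 0.04 for HSD3B2 to 0.38 for CYP19A1. Their median was 0.10, where that of all genes was 0.04. NR5A1, the receptor that drives CYP11A1 in the adrenal gland and gonads, had log2 values of 6.999, 7.17 and 6.79 on selamectin arrays 1, 2 and 3, against 6.66, 6.88 and 6.62 on untreated arrays 1, 2 and 3. Its log2 change was 0.26 with an interval from 0.02 to 0.51 (limma adjusted p = 0.22). MC2R, the receptor for the pituitary hormone ACTH, changed by 0.11 (adjusted p = 0.37). CYP17A1, which makes androgen precursors, changed by 0.14 (adjusted p = 0.38). CYP19A1, the aromatase that makes estrogens, had its lowest value of all 6 arrays, 6.91, on selamectin array 3. HSD3B2, CYP17A1 and CYP19A1 were picked from the 10 after their values were seen. The mean level over the 10 markers ranged from 6.53 to 6.84 on selamectin arrays and from 6.50 to 6.65 on untreated arrays.

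The other P450 enzymes of mitochondria numbered 6, and none passed in limma, with 1 higher at an unadjusted p under 0.05. That gene was CYP24A1, the vitamin D 24-hydroxylase, which averaged 5.02 ± 0.06 with selamectin and 4.88 ± 0.05 untreated (SD, n = 3 each) and changed by 0.14 log2 units (adjusted p = 0.19). CYP27A1, the sterol 27-hydroxylase, which uses the same electron chain as CYP11A1, changed by 0.10 (adjusted p = 0.45). Over these 6 genes the changes ran from -0.01 to 0.14. Among 7 sterol hydroxylases of other families limma called 0, also at an unadjusted p under 0.05, and their changes ran from -0.03 to 0.18. CYP7B1, the oxysterol 7-alpha-hydroxylase, stood at the upper end (adjusted p = 0.27).

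Among 7 genes that supply electrons or cofactors apart from FDX1 and FDXR, limma called 0, where it called 4.69% of all genes. At an unadjusted p under 0.05, 1 was lower, where 19.9% of all genes differed in either direction. That was H6PD, which makes NADPH inside the endoplasmic reticulum, at -0.32 (adjusted p = 0.14). PAPSS1, which makes the sulfate donor of steroid sulfation, stood at -0.21 (adjusted p = 0.32).

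Assembly of iron-sulfur clusters, on which FDX1 depends, was represented by 12 measured genes, of which 1 rose and 11 did not pass. ISCA1, a late-acting assembly factor, averaged 11.34 ± 0.18 with selamectin and 10.92 ± 0.11 untreated (SD, n = 3 each), or 1.34-fold (limma adjusted p = 0.048). A second, dimmer ISCA1 cluster changed by 0.24. The call was lost without selamectin array 1 (0.13) or 3 (0.065), or untreated array 1 (0.18), 2 (0.094) or 3 (0.091), with the replicate block (0.060), with a second quantile normalization (0.060), with median-centred arrays (0.0501), without the intensity trend (0.052) and when the clusters were averaged (0.052). At an unadjusted p under 0.05, 4 of the 12 were higher and 0 lower, where 11.7% of all genes were higher at that p and 19.9% differed in either direction. FDX2, the ferredoxin that works in cluster assembly and shares its reductase with FDX1, had log2 values of 9.07, 9.24 and 9.29 on selamectin arrays 1, 2 and 3, against 8.78, 8.96 and 8.93 on untreated arrays 1, 2 and 3. The FDX2 groups did not overlap, as was the case for 25.3% of all genes. The FDX2 change of 0.31 had an interval from 0.09 to 0.53 (limma adjusted p = 0.11). FDX2 was picked out after its value was seen, as the paralogue of FDX1. Among 8 genes of protein lipoylation, a process that also draws on FDX1, limma called 0, with 1 higher at an unadjusted p under 0.05. DLD, the shared dihydrolipoamide dehydrogenase, stood at 0.31 (adjusted p = 0.23), and LIAS, the lipoate synthase, at 0.28 (adjusted p = 0.36).

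Of 14 other proteins with a lipid-transfer domain of the STAR family or related to one, limma called 0, with 1 higher and 1 lower at an unadjusted p under 0.05. STARD5, a cytosolic sterol-binding member, averaged 7.29 ± 0.16 with selamectin and 7.68 ± 0.11 untreated (SD, n = 3 each), a log2 change of -0.39 (adjusted p = 0.058). STARD7, which carries phosphatidylcholine to mitochondria, averaged 12.17 ± 0.07 with selamectin and 11.84 ± 0.23 untreated, a change of 0.33 (adjusted p = 0.12). Neither gene's groups overlapped, as was the case for 25.3% of all genes. Among 12 genes tied to TSPO, limma called 0, with 2 higher and 1 lower at an unadjusted p under 0.05. VDAC3, a pore protein of the outer membrane, stood at 0.26 (adjusted p = 0.094), and SLC25A4, the adenine nucleotide carrier, at 0.39 (adjusted p = 0.10).

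Of 19 measured genes that bring cholesterol into cells or move it between membranes, 2 fell and 17 did not pass. At an unadjusted p under 0.05 in limma, 2 were higher and 6 lower. Of all genes, 11.7% were higher at that p and 19.9% differed in either direction. The list's median log2 change was -0.10, where that of all genes was 0.04. LRP1, an endocytic receptor for lipoproteins, had log2 values of 9.46, 9.20 and 9.26 on selamectin arrays 1, 2 and 3, against 10.07, 9.94 and 10.17 on untreated arrays 1, 2 and 3. It fell 1.69-fold (log2 change -0.75 ± 0.10 SE, limma adjusted p = 0.0047) and kept its call without any single array. OSBPL1A, an oxysterol-binding protein of late endosomes, averaged 9.02 ± 0.16 with selamectin and 9.42 ± 0.04 untreated (SD, n = 3 each), and fell 1.32-fold (adjusted p = 0.048). Its call was lost without selamectin array 2 (0.14) or 3 (0.079), or untreated array 1 (0.15), 2 (0.070) or 3 (0.17), and with the replicate block (0.067).

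Of 31 measured transcription factors and cofactors known from steroid-forming tissues, 1 fell and 30 did not pass. At an unadjusted p under 0.05 in limma, 2 were higher and 5 lower. Of all genes, 11.7% were higher at that p and 19.9% differed in either direction. TFAP2A, an AP-2 factor of placental and epithelial cells, had log2 values of 12.17, 12.13 and 12.23 on selamectin arrays 1, 2 and 3, against 12.66, 12.66 and 12.53 on untreated arrays 1, 2 and 3. It fell 1.36-fold (log2 change -0.44 ± 0.07 SE, limma adjusted p = 0.0097), and its call was lost on leaving out selamectin array 2 or untreated array 1 (0.051 each). The list's median log2 change was 0.03. Among 19 genes of cAMP and protein kinase A signalling, the pathway by which pituitary hormones raise CYP11A1 in their target tissues, limma called 0, with 2 higher and 1 lower at an unadjusted p under 0.05. AKAP1, which anchors the kinase at mitochondria, averaged 9.21 ± 0.10 with selamectin and 8.85 ± 0.03 untreated (SD, n = 3 each), a change of 0.35 (adjusted p = 0.053), and PRKAR2A, a regulatory subunit of the kinase, changed by 0.24 (adjusted p = 0.20). Among 9 proteases of mitochondria limma called 0, also at an unadjusted p under 0.05, and their changes ran from -0.16 for SPG7 to 0.14 for PMPCB.

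**Figure D3:**
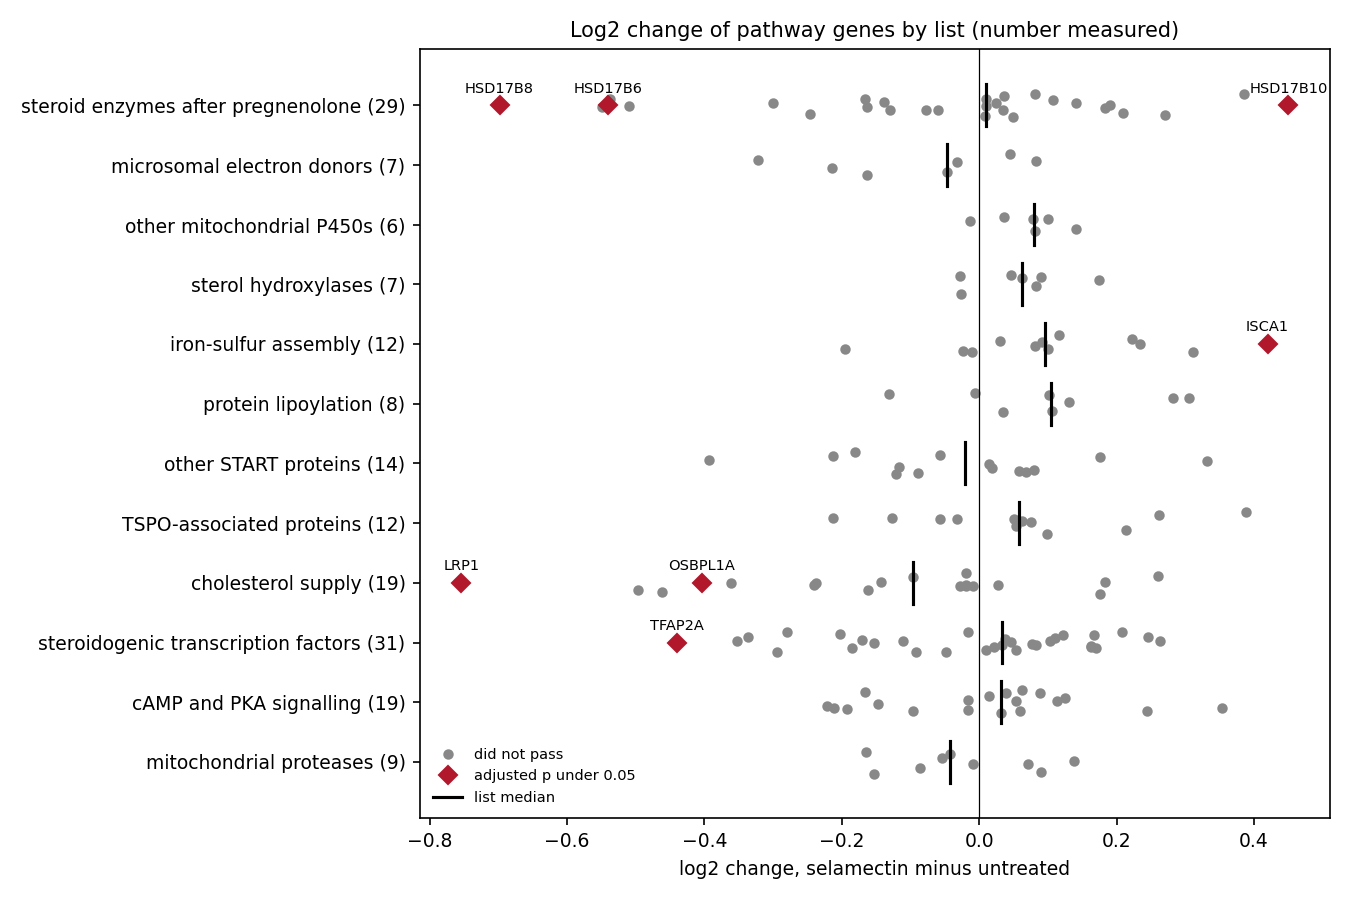
Log2 change (selamectin minus untreated) of each measured gene in the 12 pathway lists; grey points did not pass, red diamonds passed at a limma adjusted p under 0.05 and are named, and black bars are list medians. The list medians lie between -0.10 and 0.10, and the 7 named genes lie between -0.75 and 0.45.

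The surroundings of CYP11A1 on chromosome 15 were then examined by gene order in the RefSeq table (GRCh38.p14), in which CYP11A1 spans 74337762 to 74367646. Of the 3 nearest listed genes on each side, 1 had a measured cluster, CCDC33, a coiled-coil protein gene, which ends 1290 bases away. It changed by -0.13 (limma adjusted p = 0.50). The pseudogene PPIAP46 and the non-coding LOC124903524 overlap the CYP11A1 span. They had no cluster of their own here, and whether the CYP11A1 probes read any transcript from them is not known.

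The 3 nearest protein-coding genes on each side, chosen after most of those neighbours proved unmeasured, were CCDC33, STRA6, ISLR, SEMA7A, UBL7 and ARID3B. Of these 6, limma called 0, where it called 4.69% of all genes. At an unadjusted p under 0.05, 2 of the 6 were higher, where 11.7% of all genes were. Nothing is read from so small a count. STRA6, a membrane receptor for vitamin A uptake 125503 bases away, had log2 values of 9.55, 9.84 and 9.40 on selamectin arrays 1, 2 and 3, against 8.92, 9.15 and 9.33 on untreated arrays 1, 2 and 3. Its groups did not overlap, and its change was 0.46 with an interval from 0.16 to 0.76 (adjusted p = 0.080). UBL7, a ubiquitin-like protein gene, changed by 0.29 (adjusted p = 0.16), and its groups did not overlap either. Of all genes, 25.3% had groups that did not overlap. SEMA7A, a membrane-anchored semaphorin next to CYP11A1 on the other side, changed by -0.11 (adjusted p = 0.52).

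The 5 genes whose values followed CYP11A1 most closely over the 6 arrays were LMAN2L, PLRG1, KRABD4, MRM2 and DBNL. Pearson's r with CYP11A1 was 0.989 for LMAN2L, a lectin of the early secretory pathway, and 0.984 for PLRG1, a spliceosome protein. It was 0.981 for KRABD4, 0.980 for MRM2, a methyltransferase of mitochondrial ribosomal RNA, and 0.979 for DBNL, an actin-binding adaptor. These r values rank 807 genes with an SD of at least 0.3 over the arrays, of which 82 had r above 0.9. The 6 points share the split by treatment, so any gene that stood higher with selamectin ranks high, and the values are a description. LMAN2L had log2 values of 9.53, 9.80 and 9.36 on selamectin arrays 1, 2 and 3, against 8.62, 8.69 and 8.92 on untreated arrays 1, 2 and 3. Its highest value, like that of CYP11A1, was on selamectin array 2, and its highest untreated value was on array 3.

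**Figure D4:**
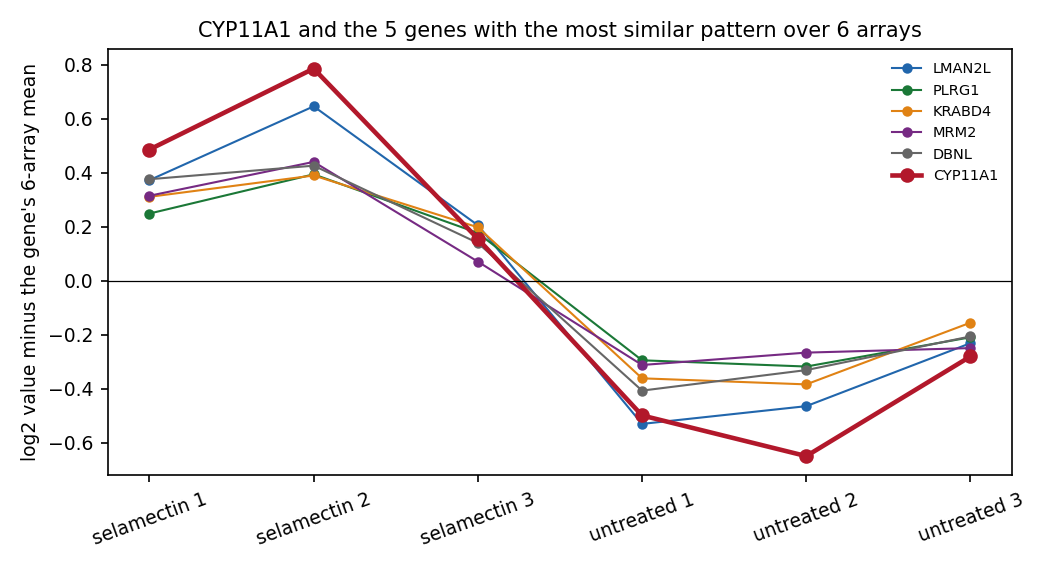
Log2 value minus the gene's own mean over 6 arrays for CYP11A1 (thick red) and the 5 genes with the highest Pearson r with it (0.979 to 0.989), selamectin arrays on the left and untreated arrays on the right; lines only join the points of a gene. All 6 genes lie above their mean on the 3 selamectin arrays and peak on selamectin array 2.

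Of 7 measured mesenchymal markers of the line, 1 rose, CD44, the hyaluronan receptor, at 0.42 (limma adjusted p = 0.020), and 6 did not pass, against 2.41% of all genes that rose. CD44 lost its call without selamectin array 1 (0.064) or 2 (0.077) or untreated array 1 (0.087) or 3 (0.072). The 7 changes ran in both directions, from -0.43 for FN1, the matrix protein fibronectin, to 0.42 for CD44, with VIM at 0.23, TWIST1 at -0.26 and a median of 0.06. Of 9 measured luminal and epithelial markers limma called 0, where it called 4.69% of all genes. At an unadjusted p under 0.05 in limma, 0 were higher and 2 lower. Of all genes, 11.7% were higher at that p and 19.9% differed in either direction. The 2 lower markers were CDH1, the adhesion protein E-cadherin, at -0.26 (limma adjusted p = 0.064), and EPCAM, an epithelial adhesion molecule, at -0.27 (0.13).

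Of 14 measured fibroblast, leukocyte and endothelial markers, 1 rose, PDGFRB, at 0.34 (limma adjusted p = 0.040), and none fell, where 2.41% of all genes rose and 2.28% fell. CDH5, the endothelial cadherin, had the widest change of the 14, at -0.59, and did not pass (limma adjusted p = 0.067). Its groups did not overlap, as was the case for 25.3% of all genes. PDGFRB lost its call on leaving out any one array (adjusted p up to 0.13) and with the replicate block (0.056). The mean level of the 14 ranged from 6.84 to 6.88 on selamectin arrays and from 6.81 to 6.90 on untreated arrays. The part of these markers in the CYP11A1 difference was not tested.

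Across the processing settings tried, the CYP11A1 change stayed between 0.80 and 1.11 log2 units. The 4 partners stayed between -0.06 and 0.22 with none called by limma. Several settings cannot move the change of a gene with a single cluster, and none that drops or weights arrays can turn the CYP11A1 sign.

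**Figure D5:**
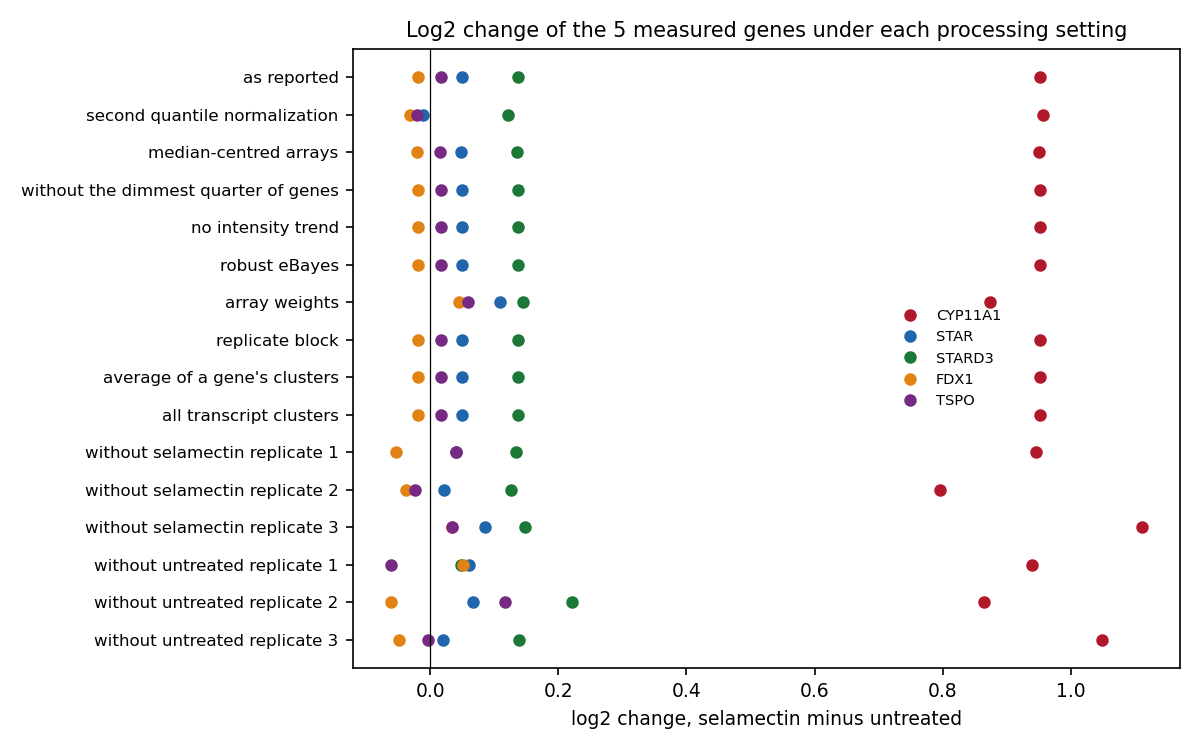
Log2 change (selamectin minus untreated) of the 5 measured genes as reported and under 15 other settings, 6 of which leave out an array. CYP11A1 lies between 0.80 and 1.11 throughout, and the partners lie between -0.06 and 0.22.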

How the data were processed

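Total RNA of 6 cultures was hybridised to Affymetrix whole-transcript arrays. The values the authors deposited are taken as log2 expression from RMA; RMA is named in the submitters' processing notes, beside Affymetrix Expression Console and Transcriptome Analysis Console, without version or setting, and the file states no log base. Array coordinates were not used here. Detection calls were not used here, and arrays have no read depth, so their number limits the precision (median SE of a change 0.094). Of 33297 clusters, 19460 had 1 symbol, 1754 several and 12083 none; the cluster with the highest mean stood for a gene, which left 18417 genes. Groups came from the titles.

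The test was that of limma 3.58.1 run in R 4.3.3 (lmFit, eBayes with intensity trend), selamectin minus untreated, two-sided, with p-values adjusted over all 18417 genes by Benjamini-Hochberg. Genes passed at an adjusted p under 0.05. The fit was tested on simulated data. Alternatives were a second quantile normalization, median centring, a filter on dim genes, no trend, a robust fit, array weights, a replicate block, averaged clusters, all clusters and leaving out each array. Named genes are the 6 members, all called list members or else the 2 with the smallest p in a list, neighbours of CYP11A1, and the 5 most similar genes. Others, among them VIM, FN1, TWIST1, CDH5 and the receptors given for the labelled line, were added after values were seen. Members and lists were chosen with earlier results of these data known. The text describes the replicates as independent without saying how cultures were separated, so p-values measure the spread between these arrays.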

Additional observations from a re-analysis of the deposited data

How the results depend on the processing

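Over 15 other settings the CYP11A1 change kept its sign and moved by less than its spread between replicates. The number of called partners was 0 in limma. CYP11A1 has a single cluster, so the dim-gene filter, trend, robust fit, replicate block and cluster settings return the same change by construction. As its groups did not overlap, leaving out or weighting arrays could not turn its sign. The kept sign of CYP11A1 was therefore largely fixed in advance. CYP11A1 ranged from 0.80 to 1.11 when each array was left out and from 0.87 to 0.96 otherwise. STARD3 kept its sign (0.05 to 0.22 leaving out each array). STAR changed sign to -0.011 with a second quantile normalization (0.02 to 0.09 leaving out each array). FDX1 changed sign to 0.045 with array weights, and ranged from -0.0615 to 0.052 leaving out each array (0.034 without selamectin array 3, 0.052 without untreated array 1). TSPO changed sign to -0.020 with a second quantile normalization, and ranged from -0.0616 to 0.12 leaving out each array (-0.023 without selamectin array 2, -0.0616 without untreated array 1, -0.0037 without untreated array 3). None of these passed, and the cause was not tested. Over all genes limma called 864, against 3286 with array weights, where untreated array 3 weighed 5.11, and 249 when all transcript clusters entered the fit. Leaving out each array gave 176 to 1149 calls, with 176 without untreated array 1, 254 without untreated array 3 and 234 without selamectin array 2. In the fit of all clusters HSD17B6 (limma adjusted p = 0.061), HSD17B10 (0.12), ISCA1 (0.14), OSBPL1A (0.12), CD44 (0.065) and PDGFRB (0.10) lost their calls. CYP11A1 is left out of these genes because its difference is described without a test, so no call is claimed for it in any setting.

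With the replicate number of the titles as a replicate block the changes of CYP11A1 (0.95), STAR (0.05), STARD3 (0.14), FDX1 (-0.02) and TSPO (0.02) are the same by construction, and no partner was called. Deviations from the group means correlated between same-numbered arrays with r of -0.01, 0.24 and -0.14 across genes. With 3 arrays per group these values cannot show whether same-numbered arrays shared any handling, which the titles do not state. No detection calls were used here, which limits what can be said of transcripts near background.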
